A study of Mus musculus with 8 samples.

Results

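Activation of a CD4+ T cell is set by the antigen receptor together with receptors that add to its signal or restrain it. The 10 genes described here encode such costimulatory and coinhibitory molecules of the T cell surface, and they were taken by symbol from the 27179 genes of the expression table, by a rule on gene names that uses no measured value. Cd28 and Icos encode costimulatory receptors. Ctla4, Pdcd1, Lag3, Tigit, Btla, Cd5 and Havcr2 encode molecules that restrain signalling, and Cd200 encodes a surface ligand of the inhibitory receptor Cd200r1 rather than a receptor.

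The table holds 8 RNA-seq libraries of splenic CD4+ T cells from offspring aged 8 weeks of the strain C.Cg-Foxp3tm2Tch/J, whose Foxp3 allele marks regulatory T cells with a green fluorescent protein. The parents had drunk plain water (control offspring) or water with CdCl2 at 10 ppm before and during mating, and the dams through pregnancy (Cd offspring). The cells were enriched by negative selection for CD4+ T cells and then sorted by flow cytometry. In each kind of offspring they were lysed straight after isolation (unstimulated) or after 16 h with beads that carry antibodies to CD3 and CD28 (stimulated), with 2 libraries in each of the 4 groups, numbered 6 and 7. Time in culture and bead stimulation therefore cannot be told apart, and the labels name neither the sex of the animals nor the animal or litter behind each library, so the errors given measure the spread between these libraries.

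In outline, costimulation begins when Cd28 meets Cd80 or Cd86 on an antigen-presenting cell, beside the antigen receptor. Ctla4 competes for the same ligands, and Pdcd1, Tigit and Btla recruit phosphatases or compete with activating partners at the contact. Several of the inhibitory receptors are themselves known as activation-induced genes, which places them in a feedback loop on the T cell that expresses them. The comparisons below ask how the set stood in resting cells, how it responded to 16 h of stimulation, and whether either differed in Cd offspring.

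By position on the mouse build GRCm38 (mm10), the members fell partly into clusters. Cd28 (chr1:60746388-60773359), Ctla4 (chr1:60909025-60915832) and Icos (chr1:60960773-61000322) lay next to each other on chromosome 1 in that order, with gaps of 135665 and 44940 bases and no other protein-coding gene of the RefSeq annotation between them. Pdcd1 lay farther along the same chromosome (chr1:94038305-94052553). Btla (chr16:45223705-45252895) and Cd200 (chr16:45382111-45409060) were neighbours on chromosome 16, 129215 bases apart, and Tigit lay on the same chromosome (chr16:43626137-43665125). Lag3 (chr6:124904359-124912434) began 16111 bases from Cd4, and Cd5 (chr19:10718107-10739026) 50312 bases from the related gene Cd6. Havcr2 was at chr11:46454931-46481255. Tigit was the only member whose span overlapped other annotated genes, Zbtb20 and Mir568, and since no source used here says that reads were counted by strand, reads of Tigit and of an overlapping gene on the other strand might not have been told apart.

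Promoters were found for 7 of the 10 members in a RefSeq table of build GRCm38.p6, and Cd28, Icos and Lag3 had no entry. The 250 bases before the start are shown for Ctla4, Pdcd1 and Cd200, 3 genes that rose together after stimulation (below), written 5′ to 3′ on the strand of the gene. Capitals mark GGAAA or its reverse complement TTTCC, the core bound by NFAT factors, which enter the nucleus on calcium signalling from the antigen receptor.
Ctla4, chr1:60908775-60909024, plus strand: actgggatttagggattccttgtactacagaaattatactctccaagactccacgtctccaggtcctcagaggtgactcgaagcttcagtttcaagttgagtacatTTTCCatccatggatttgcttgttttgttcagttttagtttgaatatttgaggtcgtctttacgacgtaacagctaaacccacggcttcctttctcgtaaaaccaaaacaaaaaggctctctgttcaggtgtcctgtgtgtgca
Pdcd1, chr1:94052554-94052803, minus strand: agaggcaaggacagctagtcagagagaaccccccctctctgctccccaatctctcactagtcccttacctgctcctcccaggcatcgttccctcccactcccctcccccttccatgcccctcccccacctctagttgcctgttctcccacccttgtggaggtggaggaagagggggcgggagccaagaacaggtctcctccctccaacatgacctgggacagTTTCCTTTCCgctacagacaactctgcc
Cd200, chr16:45409054-45409303, minus strand: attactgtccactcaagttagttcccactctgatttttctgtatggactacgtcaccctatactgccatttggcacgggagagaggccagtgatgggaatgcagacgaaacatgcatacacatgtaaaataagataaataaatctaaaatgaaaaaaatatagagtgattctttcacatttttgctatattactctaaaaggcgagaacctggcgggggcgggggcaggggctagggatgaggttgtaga
Ctla4 held 1 match, 144 to 140 bases before the start, Pdcd1 held 2 side by side, 28 to 24 and 23 to 19 bases before it, and Cd200 held none. The window of Cd200 reaches into the gene span given above, which ends at 45409060, so the start used for it lies inside that span. Of the promoters not shown, that of Tigit, which was not called, also held 2 matches, and those of Btla, Cd5 and Havcr2 held none. The core is short, and 55.6% of 32851 promoter windows of this length held it on either strand. The AP-1 motif TGANTCA, present in 6.75% of the windows, was found in Havcr2 alone among the 7 members. A match of letters describes the window and is no evidence of binding, and its absence says nothing of the factor.

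The libraries held 15542732 to 25486791 reads on genes, and the Pearson correlation of log2 values between the libraries of a group was 0.983 to 0.990. The conventional T cell markers Cd3d, Cd3e, Cd3g, Cd247, Cd4 and Lck ran from 49.5 to 479 RPKM (reads per kilobase of transcript, scaled to the depth of the library), while 4 of 5 B cell markers and 4 of 6 myeloid markers stayed under 1 RPKM in every library. The exception among B cell markers was Cd79a, at 2.87 to 3.38 RPKM in unstimulated and 4.15 to 4.73 RPKM in stimulated libraries, and Ms4a1 was listed at 0 throughout. Cd8a did not exceed 0.16 RPKM, although Cd8b1 was at 9.40 to 10.6 RPKM in unstimulated cells. Natural killer markers were present, with Klrd1 at 13.6 to 15.8 RPKM in unstimulated cells and Ncr1 at or near 0. The study describes the cells as CD4+CD25-, and Il2ra, which encodes CD25, was at 1.80 to 2.19 RPKM before stimulation and at 94.0 to 117 RPKM after it. Foxp3, the defining gene of regulatory T cells, was detected at 4.48 to 5.08 RPKM in unstimulated libraries.

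Stimulation raised 5 of the 10 members in control and in Cd offspring. These were Lag3, Cd200, Ctla4, Pdcd1 and Icos, in that order of size in both. A gene was called when limma, fitted to log2(RPKM + 0.1) over 12605 genes with a mean of at least 0.5 RPKM, gave an adjusted p under 0.01 and a change of more than 2-fold. Of the 9 members tested, 5 were called higher in control offspring, beside 11.5% of all genes tested, and the same 5 in Cd offspring, beside 11.4%. None was called lower, beside 7.17% and 7.24% of all genes. At the same adjusted p with no threshold on the fold, 7 members were higher in control offspring, beside 29.9% of all genes, and 6 in Cd offspring, beside 30.2%. Both stimulated libraries lay above both unstimulated ones for 8 of the 9 members in control offspring, the exception being Cd5, beside 46.0% of all genes. The same held for 8 of 9 in Cd offspring, the exception being Tigit, beside 44.7%. The median log2 fold change of the 9 was 1.63 in control and 1.35 in Cd offspring, and over all genes tested it was 0.07 and 0.05. In bulk RNA a change in the level per cell and a change in the share of cells that express a gene cannot be told apart.

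**Figure D1:**
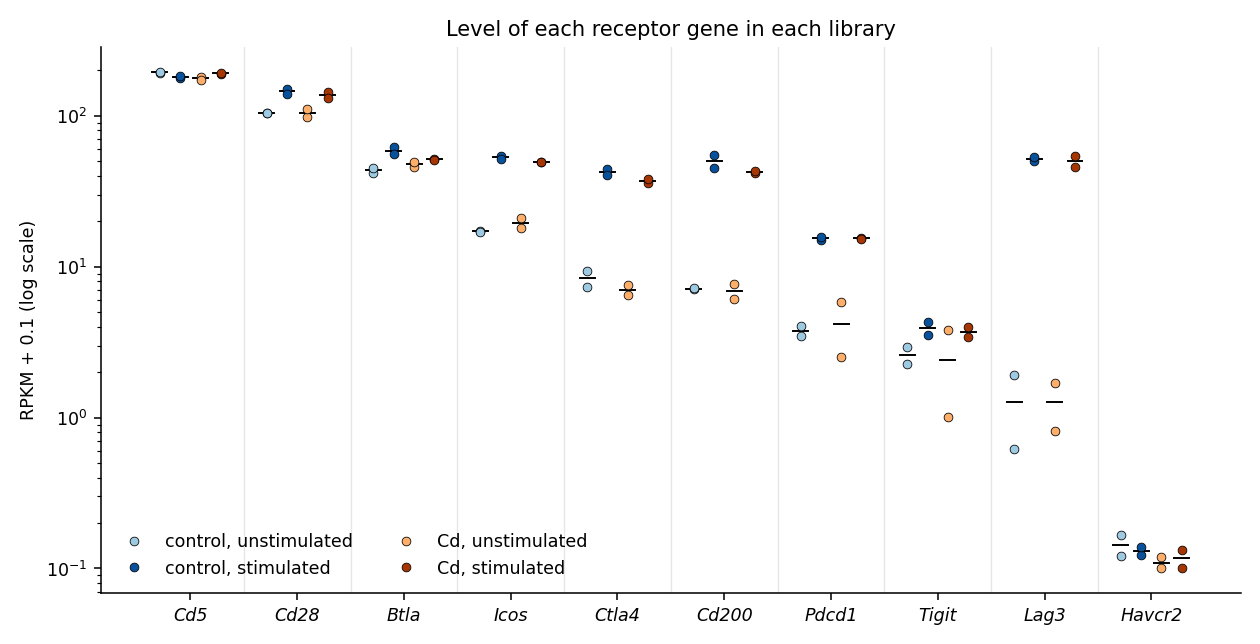
Level of each of the 10 genes in each of the 8 libraries, as RPKM + 0.1 on a log axis, with 1 point per library and a black line at the mean of each group of 2. Icos, Ctla4, Cd200, Pdcd1 and Lag3 stood higher in all 4 stimulated than in all 4 unstimulated libraries, Cd5 ran from 173 to 195 RPKM, and Havcr2 lay at the floor.

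Cd28, the receptor that the beads engage, was already abundant in resting cells. It stood at 104 and 105 RPKM in the unstimulated control libraries and at 149.8 and 140.5 after stimulation, and in Cd offspring at 97.6 and 111 before and 144 and 131 after. All 4 stimulated libraries lay above all 4 unstimulated ones. The log2 fold change was 0.48 (SE 0.075, adjusted p = 0.000904) in control and 0.40 (adjusted p = 0.00217) in Cd offspring, past the p threshold in both and short of 2-fold in both. Without the stimulated Cd library 6 the adjusted p in Cd offspring was 0.0187, which no longer passed.

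Icos, a relative of Cd28 that supports helper function and germinal centre responses, started lower and rose further. In control offspring it went from 17.2 and 17.01 to 54.2 and 52.0 RPKM, and in Cd offspring from 17.9 and 21.1 to 49.5 and 49.7 RPKM. The groups did not overlap, and the libraries of each group lay close together. Its log2 fold change was 1.63 (SE 0.076, adjusted p = 1.85e-06) in control and 1.35 (adjusted p = 4.49e-06) in Cd offspring, a 3.09-fold and a 2.54-fold rise. The level of Icos relative to Cd28 went from 0.162 to 0.1902 in unstimulated libraries to 0.344 to 0.378 in stimulated ones.

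Ctla4, which binds Cd80 and Cd86 more tightly than Cd28 does, was low at rest. Unstimulated control libraries held 9.24 and 7.28 RPKM and stimulated ones 44.3 and 40.3, against 6.37 and 7.51 and 35.7 and 37.9 in Cd offspring. Every stimulated library was well above every unstimulated one. The log2 fold change was 2.35 (SE 0.13, adjusted p = 3.25e-06) in control and 2.39 (adjusted p = 3.23e-06) in Cd offspring. Relative to Cd28, Ctla4 stood at 0.0653 to 0.0890 before and at 0.248 to 0.296 after stimulation, so its transcript remained the less abundant of the pair per length in every library.

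Cd200 showed the second largest change of the set. Its level was 7.01 and 7.08 RPKM in unstimulated and 54.7 and 45.3 in stimulated control libraries, and 6.03 and 7.59 and 41.4 and 43.1 in those of Cd offspring. No stimulated library came near the unstimulated range. The log2 fold change was 2.80 (SE 0.12, adjusted p = 1.37e-06) in control and 2.62 (adjusted p = 1.89e-06) in Cd offspring, and in the ranking of all 12605 genes by log2 fold change 136 genes lay above it in control and 168 in Cd offspring.

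Lag3, a CD4-like molecule that binds MHC class II, had the steepest rise. Unstimulated cells held almost none, with 1.80 and 0.521 RPKM in control and 0.72 and 1.604 RPKM in Cd offspring, and after stimulation the libraries stood at 50.1 and 53.6 and at 45.9 and 54.3 RPKM. The unstimulated values rested on 17 to 66 reads a library and the stimulated ones on 1559 to 2773. The log2 fold change was 5.58 (SE 0.51, adjusted p = 4.93e-05) in control and 5.40 (adjusted p = 5.96e-05) in Cd offspring. Only 7 of the 12605 genes had a larger log2 fold change in control offspring and 10 in Cd offspring. The size depended on single unstimulated libraries, being 4.77 without the unstimulated control library 7 and 6.39 without library 6, and 4.88 and 5.93 without the unstimulated Cd library 6 or 7. It was called each time.

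Pdcd1, the gene of PD-1, rose about as far as Ctla4 on the log2 scale but from a lower level to a lower level. It went from 3.92 and 3.40 to 15.0 and 15.6 RPKM in control offspring and from 2.43 and 5.73 to 15.5 and 15.3 RPKM in Cd offspring. The unstimulated Cd libraries stood apart from each other, whereas the 4 stimulated libraries were nearly level. The log2 fold change was 2.04 (SE 0.33, adjusted p = 0.000958) in control and 2.01 (adjusted p = 0.00105) in Cd offspring, and in Cd offspring it was 1.41 without the unstimulated library 6 and 2.61 without library 7.

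Tigit, which binds Pvr and restrains the activating receptor Cd226, was not called. Control libraries held 2.83 and 2.17 RPKM before and 4.21 and 3.42 after stimulation, on 34 to 64 reads each. In Cd offspring the unstimulated libraries were 0.909 and 3.69 RPKM and the stimulated ones 3.31 and 3.91 RPKM. The groups did not overlap in control offspring but did in Cd offspring, where library 7 of the unstimulated cells was as high as the stimulated ones. The log2 fold change was 0.60 (SE 0.53, adjusted p = 0.35) in control and 0.92 (adjusted p = 0.16) in Cd offspring, with intervals of -0.64 to 1.83 and -0.31 to 2.15, so that no change and a rise of over 2-fold both lay inside the interval. In Cd offspring leaving out unstimulated library 7 gave 1.87 with an adjusted p of 0.000539, past both thresholds, and leaving out library 6 gave -0.036.

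Btla, which pairs with Tnfrsf14 (HVEM), was the third most abundant member at rest. It was at 41.7 and 45.2 RPKM in unstimulated and 61.6 and 55.9 in stimulated control cells, a log2 fold change of 0.43 (SE 0.072, adjusted p = 0.00115) that stayed under 2-fold. It no longer passed under quantile normalization (adjusted p = 0.0126) or without the unstimulated control library 6 (adjusted p = 0.0102). Cd offspring had 45.4 and 49.7 RPKM and then 52.0 and 50.8 RPKM, a log2 fold change of 0.11 (adjusted p = 0.2). Under quantile normalization the value in Cd offspring was -0.061. The difference between these 2 responses is tested below.

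Cd5, a scavenger-receptor family member that dampens antigen receptor signalling, was the most abundant member throughout. Its libraries ran at 193 and 195 and then 179 and 185 RPKM in control offspring, and at 181 and 173 and then 190.2 and 192 RPKM in Cd offspring. It was slightly lower after stimulation in the first and slightly higher in the second, without overlap in either. Neither change passed, at a log2 fold change of -0.093 (SE 0.045, adjusted p = 0.107) in control and 0.11 (adjusted p = 0.0671) in Cd offspring, with intervals of -0.20 to 0.013 and 0.0026 to 0.21.

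Havcr2, the gene of Tim-3, was not detected above the counting floor. It had 0 to 3 reads a library, 10 in all, and 3 reads correspond to 0.0432 to 0.0708 RPKM at these depths. It was below the filter, was not tested, and no fold is given.

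**Figure D2:**
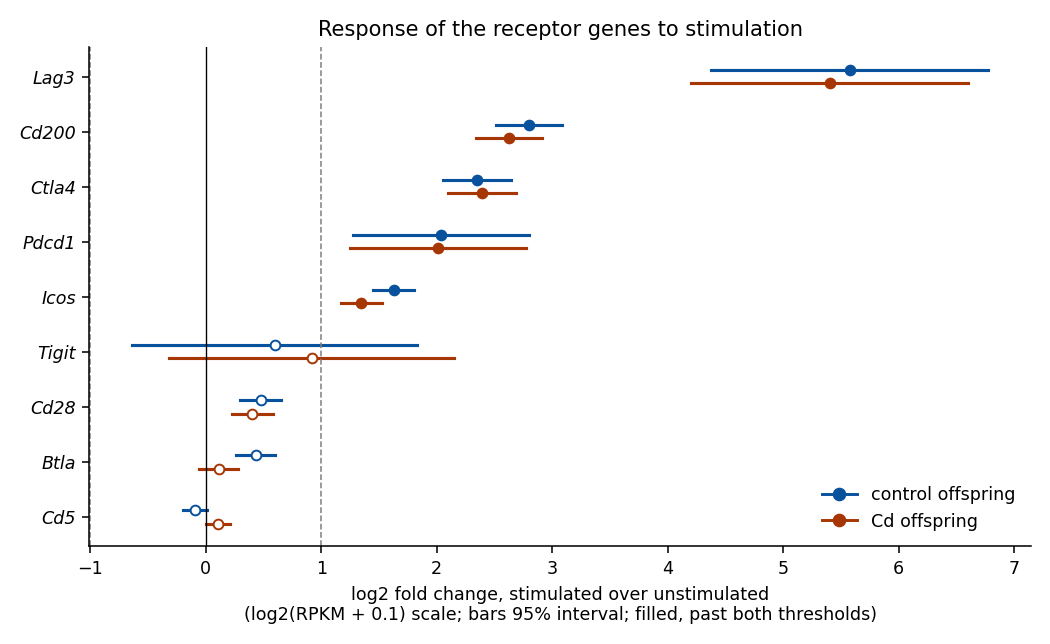
Log2 fold change of stimulated over unstimulated cells for the 9 tested members, in control (blue) and Cd offspring (brown), with 95% intervals from limma. Filled points passed the adjusted p of 0.01 and lay beyond 2-fold (dashed lines at 1 and -1), which holds for Lag3, Cd200, Ctla4, Pdcd1 and Icos in both, and the interval of Tigit is the widest around a value under 1.

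The order of the levels changed with stimulation. At rest in control offspring the members ran Cd5, Cd28, Btla, Icos, Ctla4, Cd200, Pdcd1, Tigit, Lag3 and Havcr2, with means from 194 to 0.0440 RPKM, and no neighbours in that order overlapped. In unstimulated Cd offspring the order was the same, but Ctla4 and Cd200, Pdcd1 and Tigit, and Tigit and Lag3 overlapped between libraries. After stimulation Cd5 and Cd28 still led. Behind them Btla, Icos, Lag3 and Cd200 came together, with group means of 58.8, 53.1, 51.8 and 50.01 RPKM in control offspring, where Icos, Lag3 and Cd200 could not be ordered beyond their spread. Lag3 moved from 9th place to 5th in control and to 4th in Cd offspring, where its libraries overlapped those of Btla and of Icos, so that these 3 could not be ordered. The summed level of the 10 genes was 358 to 382 RPKM in unstimulated and 578 to 613 RPKM in stimulated libraries.

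Among 15 genes for ligands and counter-receptors of these molecules, 9 were expressed highly enough to test, and T cells themselves can carry several of them. Both ligands of PD-1 rose. Cd274 (PD-L1) went from 13.6 and 12.9 to 85.0 and 94.5 RPKM in control and from 14.3 and 13.1 to 73.3 and 85.1 RPKM in Cd offspring, with a log2 fold change of 2.75 (SE 0.089, adjusted p = 4.89e-07) in control and 2.52 (adjusted p = 7.41e-07) in Cd offspring. Pdcd1lg2 (PD-L2) was at 0.679 to 1.06 RPKM in unstimulated and 8.70 to 9.42 RPKM in stimulated libraries, and its log2 fold change was 3.19 (SE 0.17, adjusted p = 2.83e-06) in control and 3.35 (adjusted p = 2.42e-06) in Cd offspring. The level of Cd274 was therefore above that of its receptor in every library, by 2.29 to 6.04 times per length.

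The ligands of the costimulatory receptors moved the other way. Icosl fell, from levels of 2.51 to 2.95 RPKM in unstimulated libraries to levels of 0.811 to 0.935 RPKM in stimulated ones, a log2 fold change of -1.49 in control and -1.56 in Cd offspring (adjusted p = 0.000107 and 8.59e-05). Cd86, at 1.67 to 2.76 RPKM in unstimulated and at 0.502 to 0.938 RPKM in stimulated libraries, fell with a log2 fold change of -1.03 and -1.89 (adjusted p = 0.00671 and 0.000289). Both Icosl and Cd86 were thus at low levels, and Cd80 was too low to test. Cd200r1, the receptor for Cd200, went from 8.70 and 8.44 to 2.14 and 2.07 RPKM in control and from 8.71 and 10.7 to 1.97 and 1.78 RPKM in Cd offspring, with a log2 fold change of -1.98 (SE 0.12, adjusted p = 6.27e-06) in control and -2.30 (adjusted p = 3.31e-06) in Cd offspring.

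Set against its receptor, the level of Cd200 turned over. It stood at 0.692 to 0.840 times the level of Cd200r1 per length in unstimulated libraries and at 21.0 to 25.5 times in stimulated ones. Icos exceeded Icosl throughout, by 5.84 to 7.44 times before and by 55.6 to 61.1 times after stimulation. Of the other ligands, Tnfrsf14, the partner of Btla, was at 45.8 to 52.5 RPKM and then 65.5 to 75.7 RPKM, with a log2 fold change of 0.57 and 0.57 that stayed under 2-fold. The remaining tested ligands went the other way, also under 2-fold. In control and Cd offspring Lgals9 had -0.66 and -0.63, Pvr -0.83 and -0.81, and Hmgb1 -0.16 and -0.52. In all, 2 of the 9 tested ligand genes were called higher in control and in Cd offspring, beside 11.5% and 11.4% of all genes. In both, 3 were called lower, beside 7.17% and 7.24%. The list's median log2 fold change was -0.66 and -0.63. Myeloid markers, which mark cells that also express Cd86, summed to 6.24 to 7.90 RPKM in unstimulated and 3.21 to 4.31 RPKM in stimulated libraries, with Lyz2 and Itgax at or near 0. The sum was carried by Cd68, at 4.25 to 5.77 RPKM and then 2.74 to 3.79 RPKM, and Itgam, at 1.56 to 1.85 RPKM and then 0.251 to 0.398 RPKM. Selection and sorting for CD4+ T cells are meant to remove myeloid cells, and their part in the fall of Cd86 was not tested.

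Other co-receptors of the immunoglobulin and SLAM families mostly did not rise. Of 15 such genes, 13 were tested. In control offspring 1 was called higher, beside 11.5% of all genes, and 5 lower, beside 7.17%. In Cd offspring 0 were called higher, beside 11.4%, and 5 lower, beside 7.24%. Slamf1, a self-binding SLAM receptor, was the one called higher, at a log2 fold change of 1.002 in control and 0.89 in Cd offspring, so the call turned on the 2-fold threshold. Those called lower in both were Cd96, Cd160, Lair1, Crtam and Cd7. Cd96, which shares the ligand Pvr with Tigit and Cd226, lay at 74.1 to 82.3 RPKM in unstimulated and at 37.3 to 38.3 RPKM in stimulated libraries (log2 fold change -1.11 and -1.04), whereas Cd226, chosen for the shared ligand after its values were seen, was at 29.6 to 35.9 RPKM and 29.6 to 39.8 RPKM and was not called. Within this family of receptors for Pvr, the ratio of Cd96 to Cd226 was 2.29 to 2.71 before and 0.939 to 1.26 after stimulation. Lair1, an inhibitory collagen receptor, had a log2 fold change of -1.92 and -1.98. The list's median was -0.48 in control and -0.41 in Cd offspring, while the most abundant of these genes, Cd2, was at 276 to 304 RPKM and then at 209.9 to 213 RPKM. Several of the genes that fell are also expressed by natural killer cells, and the natural killer markers fell with them, from a sum of 28.3 to 34.2 RPKM to 9.50 to 11.05 RPKM. Of 4 tested natural killer markers, 3 were called lower in control and in Cd offspring, beside 7.17% and 7.24% of all genes. A fall was not limited to them. All 6 conventional T cell markers had a log2 fold change below 0 in both, with a median of -0.70 and -0.64, and 1 and 0 of them were called lower. Of 5 naive T cell markers 4 were below 0 in both, with a median of -0.89 and -0.65 and none called. Ncr1 was at or near 0 in all libraries, selection and sorting for CD4+ T cells are meant to remove natural killer cells, and the part of these cells in the result was not tested.

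Of the genes that act on the cytoplasmic tails of these receptors, all 17 were tested. None was called higher, beside 11.5% and 11.4% of all genes in control and Cd offspring, and 2, Prkcq and Dok2, were called lower in both, beside 7.17% and 7.24%. Prkcq encodes protein kinase C theta, which is recruited with Cd28, and it lay at 155 to 159 RPKM in unstimulated and at 72.4 to 80.3 RPKM in stimulated libraries, a log2 fold change of -1.11 and -1.02. Ptpn6 and Ptpn11, the phosphatases SHP-1 and SHP-2 that bind inhibitory tails, had log2 fold changes of 0.87 and 0.58 in control offspring (adjusted p = 7.54e-06 and 5.89e-05), higher yet under 2-fold. Inpp5d, another phosphatase gene of the list, went the other way, with -0.57 in control and -0.71 in Cd offspring (adjusted p = 4.76e-05 and 1.64e-05), also under 2-fold. Ptpn11 and Inpp5d were named after their values were seen. Of the 17 genes, 12 had a log2 fold change below 0 in control and 11 in Cd offspring. The list's median log2 fold change was -0.28 in control and -0.24 in Cd offspring.

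Among 14 transcription and RNA-decay regulators known to act on members of the set, all tested, Zc3h12d was called higher and Tox and Maf lower in both kinds of offspring. Of all genes, 11.5% were called higher and 7.17% lower in control offspring, and 11.4% and 7.24% in Cd offspring. Zc3h12d encodes an RNase that limits activation transcripts, and it lay at 18.9 to 19.9 RPKM in unstimulated and at 50.8 to 56.6 RPKM in stimulated libraries (log2 fold change 1.51 and 1.42). Tox, known for sustaining Pdcd1 in exhausted T cells, lay at 26.3 to 28.4 RPKM and then at 12.1 to 14.1 RPKM (log2 fold change -1.08 and -1.001). Its call in Cd offspring turned on the 2-fold threshold. The median of the list was -0.16 and -0.15. Nfatc1 had a log2 fold change of 0.76 and 0.76, past the p threshold and under 2-fold. No gene of these 4 lists was called between Cd and control offspring. The share of all genes called was 0.896% in unstimulated and 0.0% in stimulated cells.

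**Figure D3:**
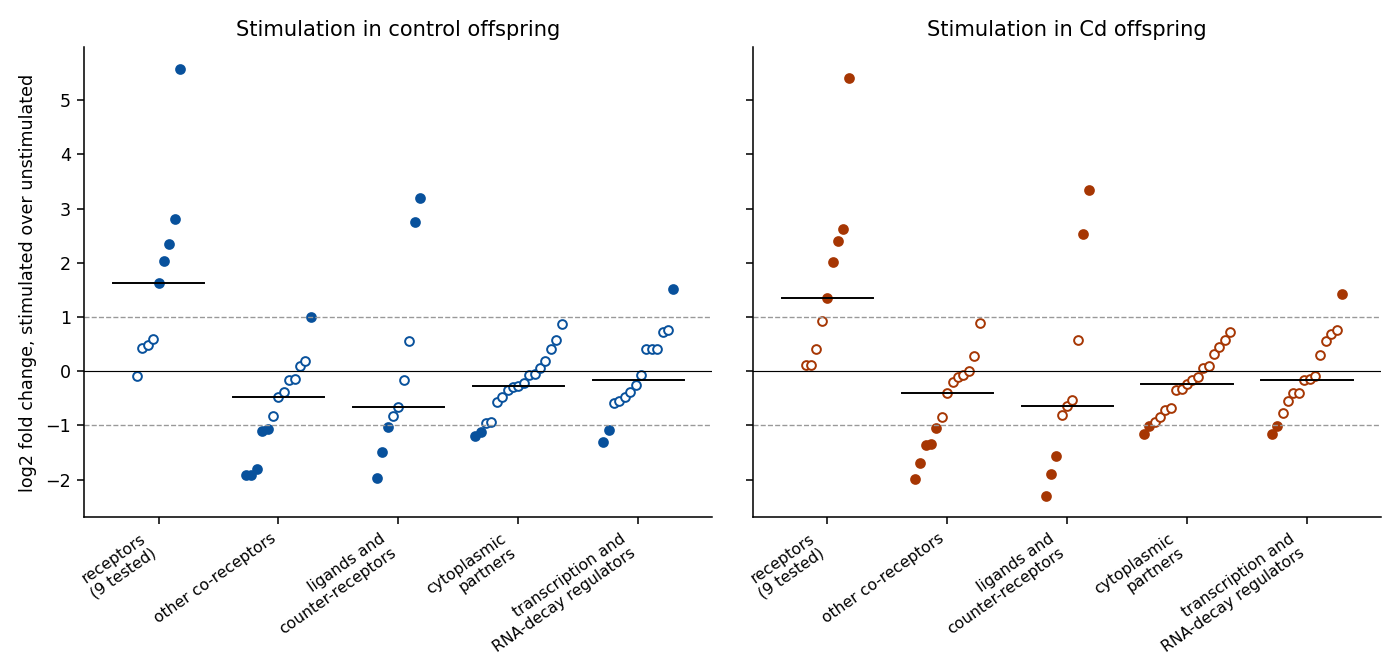
Log2 fold change with stimulation of each tested gene in the receptor set and in 4 related lists, in control (left) and Cd offspring (right). Each point is a gene, filled where called, the black line is the list's median and the dashed lines mark 2-fold. The receptor set has its median above 1 and no called gene below 0, and the other co-receptors have a median below 0 with 5 genes called lower in each panel.

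Regulatory T cells carry high levels of Ctla4, Icos and Tigit. Of the 7 regulatory T cell markers, 4 were called higher with stimulation in control and in Cd offspring, beside 11.5% and 11.4% of all genes. They were Il2ra, Ikzf4, Tnfrsf18 and Lrrc32. Of these 4, Il2ra and Tnfrsf18 are also induced in conventional T cells on activation. All 7 markers had a log2 fold change above 0 in control and in Cd offspring. Their median was 2.54 and 2.68, against 0.07 and 0.05 over all genes tested. The list summed to 40.4 to 49.0 RPKM in unstimulated and 318 to 349 RPKM in stimulated libraries. Foxp3 itself was at 5.08 and 4.84 RPKM and then 7.29 and 5.98 RPKM in control and at 4.48 and 4.72 RPKM and then 7.69 and 7.20 RPKM in Cd offspring, a log2 fold change of 0.41 and 0.68 that stayed under 2-fold. Whether regulatory T cells had a part in the rise of the members was not tested.

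The genes beside the members did not all move with them. Ptms, 1240 bases from Lag3, was called higher in both kinds of offspring, with a log2 fold change of 1.80 and 1.93, while Cd4 on the other side of Lag3 had -0.53 and -0.37. In the cluster on chromosome 1 the log2 fold change was 0.48 for Cd28, 2.35 for Ctla4 and 1.63 for Icos in control offspring, and Raph1, the next gene on the Cd28 side, had 1.20, called there but not in Cd offspring at 0.95. Cd6, beside Cd5, had -0.39 and -0.20.

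Between Cd and control offspring no member passed the test. In unstimulated cells 0 of the 9 members had an adjusted p under 0.05, beside 0.896% of all genes tested, and the lowest adjusted p was 0.278. At an unadjusted limma p under 0.05 there were 2, beside 13.9% of all genes. These were Icos, higher by a log2 difference of 0.18 (interval 0.0045 to 0.36, adjusted p = 0.349), and Cd5, lower by a log2 difference of -0.13 (interval -0.24 to -0.027, adjusted p = 0.278). The libraries of Cd and control offspring did not overlap for 3 of the 9, Icos and Btla above and Cd5 below, beside 42.3% of all genes. The median log2 difference over the 9 was -0.0041.

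In stimulated cells limma called 0 members and 0 of the 12605 genes (0.0%). At an unadjusted limma p under 0.05 there was 1 member, beside 3.28% of all genes. It was Btla, with a log2 difference of -0.19 (interval -0.36 to -0.024, adjusted p = 1). Icos, Ctla4, Btla and Cd200 lay lower in both Cd libraries than in both control libraries and Cd5 lay higher, 5 of 9 without overlap beside 36.7% of all genes. The log2 differences of these 5 ran from -0.24 for Cd200 to 0.069 for Cd5. Voom on whole reads recovered from the table also called no member and no gene.

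How narrowly a difference could be bounded varied from gene to gene. For Cd28, Btla, Icos and Cd5 the bounds of the 95% interval of the Cd difference lay between -0.36 and 0.36 on the log2 scale in unstimulated and stimulated cells. For Ctla4 the lower bound at rest was -0.54, and for Pdcd1 it spanned -0.73 to 0.80 at rest. For Lag3 and Tigit the intervals at rest were -1.08 to 1.32 and -1.63 to 0.83, and in stimulated cells they were -1.25 to 1.14 and -1.31 to 1.16. Differences of over 2-fold lay inside all 4, in both directions for all but Tigit at rest, where only a lower level did. The fit pools the spread of a gene over the 4 groups. The SE was therefore the same in unstimulated and stimulated cells, at 0.51 for Lag3 and 0.53 for Tigit. The intervals in stimulated cells thus include the spread of the unstimulated libraries. The stimulated libraries of a group differed by at most 1.23-fold for these 2 genes.

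The response to stimulation itself was compared as the response in Cd minus the response in control offspring. None of the 9 members passed an adjusted p of 0.05, beside 0.357% of all genes, and the lowest adjusted p was 0.346. At an unadjusted limma p under 0.05 there were 3, beside 10.6% of all genes. The response of Btla was smaller in Cd offspring, with a difference of -0.32 (interval -0.56 to -0.083, adjusted p = 0.346), and so was that of Icos, with -0.28 (interval -0.53 to -0.028, adjusted p = 0.431). Cd5 went the other way, with a difference of 0.20 (interval 0.052 to 0.35, adjusted p = 0.349). For the 3 genes the order of Cd and control libraries at rest was turned over after stimulation. For Lag3 and Tigit the intervals of the difference in response were -1.87 to 1.52 and -1.42 to 2.07.

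**Figure D4:**
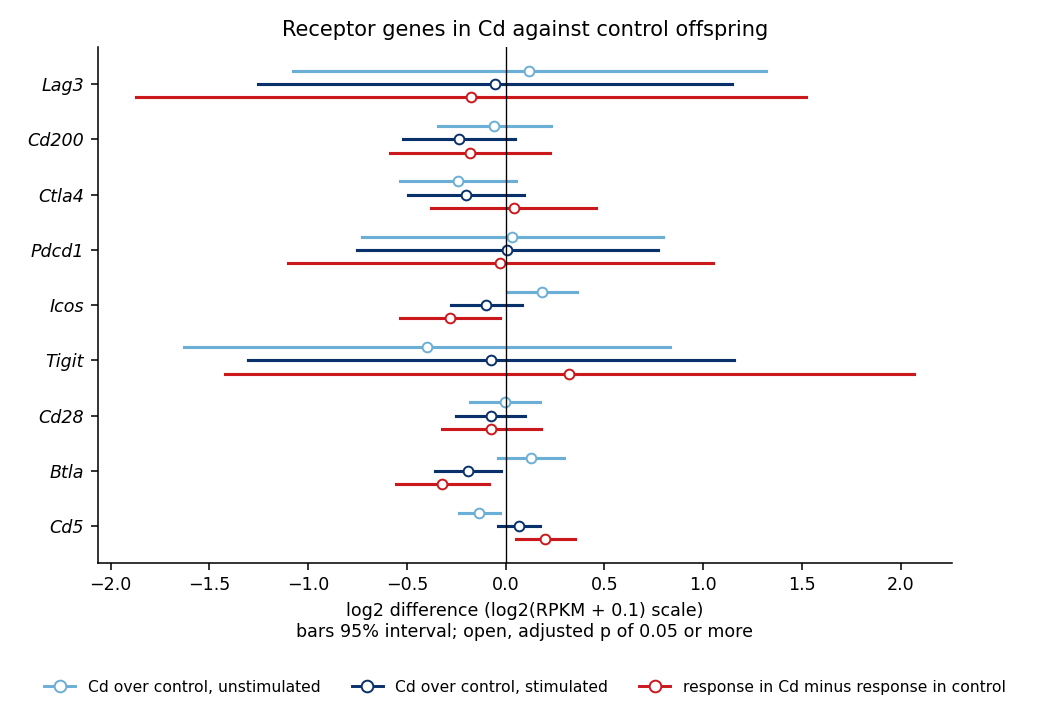
Log2 differences between Cd and control offspring for the 9 tested members in unstimulated (light blue) and stimulated cells (dark blue), and the response in Cd minus the response in control offspring (red), with 95% intervals. Open points mark adjusted p of 0.05 or more, which holds for all 27 values, and the intervals of Lag3, Tigit and Pdcd1 are the widest.

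The resting libraries of a group differed most in Tigit, Lag3 and Pdcd1, the 3 tested members with the lowest resting levels. Between the unstimulated Cd libraries Tigit was 0.909 RPKM from 17 reads (95% interval 0.53 to 1.46) in library 6 and 3.69 RPKM from 73 reads (95% interval 2.89 to 4.64) in library 7. Pdcd1 differed 2.36-fold and Lag3 2.23-fold between the same libraries, both lower in library 6. Between the unstimulated control libraries it was Lag3 that differed, at 1.80 RPKM from 65 reads (95% interval 1.39 to 2.30) in library 6 and 0.521 RPKM from 17 reads (95% interval 0.303 to 0.834) in library 7. These intervals, exact Poisson, cover counting error only, and they did not overlap. After stimulation the libraries of a group were within 1.23-fold of each other for all 9 tested members, and Cd5 stayed within 1.04-fold in every group.

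An order chosen after the values were seen, library 6 above 7 in control and 7 above 6 in Cd unstimulated cells, held for Icos, Ctla4, Pdcd1, Lag3 and Tigit, 5 of the 9 members, and for 2980 of the 12605 genes tested (23.6%). It held for 5 of 5 effector memory T cell markers, whose summed level was 93.0 to 106 RPKM in unstimulated control and 77.9 to 99.0 RPKM in unstimulated Cd libraries, and for 3 of 7 regulatory T cell markers, Foxp3, Ikzf2 and Nrp1. Differences of over 0.3 log2 units in both groups were found for 2 of the 9 members and 169 of all genes tested (1.34%). They were found for 0 of the 5 effector memory markers, 1 of the 7 regulatory T cell markers and 1 of the 3 follicular helper markers. Among the regulators the order held for 6 of 14, including Tox2 and Maf, and differences of over 0.3 log2 units in both groups for 2. The order also held for 1 of 5 naive, 2 of 6 conventional, 2 of 3 follicular helper and 2 of 4 natural killer markers. Of the 7 regulatory T cell markers, 1 was called between unstimulated Cd and control cells, beside 0.896% of all genes. It was Tnfrsf18, which activated T cells also express and which was lower (log2 difference -0.28, adjusted p = 0.0364). The log2 difference of the other 6 was below 0 for 3 and above 0 for 3, among them Foxp3 at -0.11 and Il2ra at 0.14. The part of such cells in the levels and the spread of the members was not tested.

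**Figure D5:**
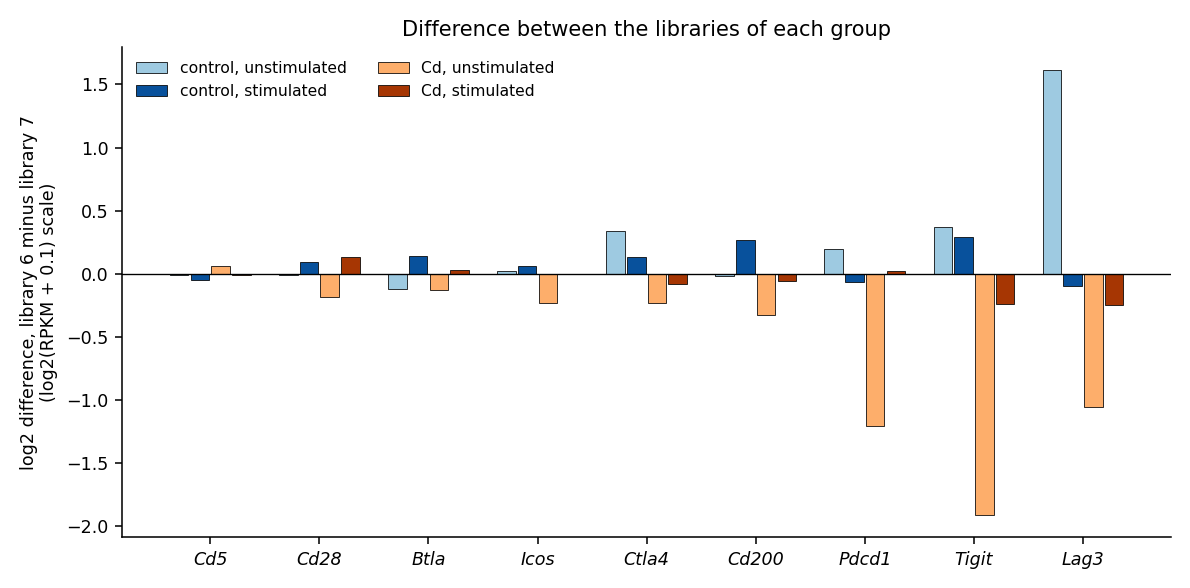
Difference between library 6 and library 7 of each group for the 9 tested members, in log2 units, with bars from 0 upward where library 6 was higher. The bars of Tigit, Pdcd1 and Lag3 in unstimulated Cd cells and of Lag3 in unstimulated control cells go beyond 1 log2 unit, and those of stimulated cells (dark) reach at most 0.29.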

How the data were processed

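Poly(A)-selected libraries of splenic CD4+ T cells were sequenced as paired reads. According to the study's methods the authors used Subread for alignment to build mm10 and featureCounts for counts per RefSeq transcript. Whether reads were counted by strand, and how reads with several matches were treated, is not given in the sources used here. The deposited values are log2 of RPKM + 1 for 27179 genes, with a constant of 0.0001 added. They were turned back into RPKM, and the spacing of low values gave back the whole reads and each library's total. All 8 columns matched a labelled sample.

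Genes with a mean of at least 0.5 RPKM (12605) were fitted as log2(RPKM + 0.1) with limma 3.58.1 in R 4.3.3, with 4 group means, a trend in the prior spread and Benjamini-Hochberg adjustment over all genes fitted. A stimulation call needed an adjusted p under 0.01 and over 2-fold, and a call between Cd and control offspring, or of the difference in response, an adjusted p under 0.05. With 2 libraries a group, an exact permutation test cannot go below 0.333, so none is reported. All p-values are two-sided. The script was tested on simulated data. Intervals of fitted values are 95%, and Poisson intervals and the floor of 3 reads cover counting error only.

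The members, the gene lists and the tests were chosen with earlier results of these data known. Beside the members, the text names called genes of the lists, up to 4 uncalled genes a list with the highest mean RPKM, markers, and the nearest coding genes. Exceptions are stated. Alternatives were other pseudocounts, filters and scalings, no trend, a replicate block, leaving out each library, and voom on recovered reads, the last chosen after seeing the data. Promoter windows came from a RefSeq table of GRCm38.p6.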

Additional observations from a re-analysis of the deposited data

How the results depend on the processing

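The members called numbered 5, 5, 0, 0 and 0 for stimulation in control and in Cd offspring, Cd against control in unstimulated and in stimulated cells, and the difference in response, under all alternatives but 1. Without the unstimulated Cd library 7, 6 members were called for stimulation in Cd offspring, adding Tigit. Of the members' log2 values under alternatives, 735 kept direction and side of the threshold, 29 changed sign and 1 newly passed. With quantile normalization, Btla was -0.061 for stimulation in Cd offspring, Cd28 0.026 for Cd against control in unstimulated cells and Pdcd1 0.0075 for the difference in response, and with median-of-ratios scaling the last was 0.0025. Quantile normalization moved the median of all genes by -0.10 for stimulation in control offspring. The cause was not tested.

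Leaving out single libraries changed the sign of these values. Stimulation in Cd offspring ran from -0.036 to 1.87 for Tigit. Cd against control in unstimulated cells ran from -0.096 to 0.088 for Cd28, from -0.57 to 0.64 for Pdcd1, from -0.69 to 0.93 for Lag3, from -1.35 to 0.56 for Tigit and from -0.22 to 0.11 for Cd200. In stimulated cells it ran from -0.024 to 0.038 for Pdcd1, from -0.18 to 0.068 for Lag3 and from -0.22 to 0.072 for Tigit. The difference in response ran from -0.16 to 0.020 for Cd28, from -0.13 to 0.21 for Ctla4, from -0.63 to 0.58 for Pdcd1, from -0.98 to 0.63 for Lag3 and from -0.63 to 1.28 for Tigit. Where this left a group with 1 library, that library was assumed to vary like the others. With a pseudocount of 1 RPKM, the stimulation value of Lag3 was 4.68 in control and 4.59 in Cd offspring.

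The numbers 6 and 7 are not stated to pair libraries across groups, and the differences between them correlated at 0.0635 between the control groups and at 0.0085 between the Cd groups. With the replicate number as a block, the members called again numbered 5, 5, 0, 0 and 0. Over all genes, 11 were then called higher and 65 lower in unstimulated Cd cells, against 17 and 96 without it. Voom called 61 and 151, no trend in the spread 2 and 12, and no filter 14 and 51. For the difference in response 38 higher and 7 lower became 102 and 11 with voom, 3 and 1 without the trend and 23 and 5 without the filter. In stimulated Cd cells the count of 0 became 6 and 3 without the filter and 1 and 1 without the trend. Ligand genes called in control offspring were 3 rather than 5 with a pseudocount of 1 RPKM, and cytoplasmic partners 4 rather than 2 with median-of-ratios scaling. In Cd offspring 1 cytoplasmic partner rather than 2 was called without the stimulated Cd library 7. Of the regulators, 1 rather than 3 was called in control offspring without the stimulated control library 7, and in Cd offspring with a pseudocount of 1 RPKM and without the unstimulated or the stimulated Cd library 7.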
